A study of Mus musculus with 6 samples.

Results

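The genes described here were protein-coding genes to which the activity-by-contact (ABC) model assigned at least 4 enhancer elements with a score above 0.05 in oligodendrocyte precursor cells (OPCs). A pair of an element and a target gene with a score above 0.05 is called a connection below. The members are the connections of these genes with a score of at most 0.2. There were 133 member pairs of 32 genes among the 66637 listed pairs of Ctr-OPCs, and 148 member pairs of 35 genes among the 71478 listed pairs of IFN-γ-OPCs, 281 member pairs in all. A further 4 pairs of these genes in Ctr-OPCs and 3 after IFN-γ scored above 0.2, and they were counted as connections of the gene but not as members. Genes with 4 or more connections made up 0.256% of the 12511 protein-coding genes listed in Ctr-OPCs and 0.273% of the 12831 listed after IFN-γ. The genes and pairs were selected on the ABC score, so their numbers of connections, scores, activities and contacts are given as descriptions without a test.

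H3K27ac HiChIP, which captures DNA contacts at chromatin that carries this acetyl mark, was performed on primary mouse OPCs labelled as strain C57BL/6j and genotype Sox10-Cre/RCE, in which Cre under Sox10 control turns on a green reporter in the oligodendrocyte lineage. The study's methods give a mixed C57BL/6 and CD1 background for the reporter line that was crossed in. Cells of early postnatal brains, several brains together and different litters for each replicate, were purified by sorting for the reporter or with beads against a surface receptor of OPCs and were grown in a proliferation medium with bFGF and PDGF-AA. Of 6 libraries, 3 came from cells kept in that medium (Ctr-OPCs) and 3 from cells that also received 100 ng/mL interferon-γ (IFN-γ-OPCs), starting 24 h after passaging. The comparison asks which enhancer elements a gene is paired with before and after IFN-γ. The 3 libraries of a condition were pooled into 1 table, so no value below has a replicate error, and no difference between conditions could be set against a spread between replicates. The depth behind each value is unknown. The label of the cells was set beside marker lists: 36 of 57 listed genes of the OPC and oligodendrocyte lineage had a connection in Ctr-OPCs and 37 of 58 after IFN-γ, against 2 of 11 and 3 of 12 for microglia, 7 of 17 and 8 of 16 for astrocytes, 8 of 17 and 8 of 19 for neurons, and 3 of 14 and 3 of 13 for endothelial and mural cells. Over all listed protein-coding genes, 31.7% had a connection in Ctr-OPCs and 33.1% after IFN-γ, a share that the astrocyte and neuron lists exceeded as well. The part of other cells in the results was not tested.

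Enhancers are stretches of open chromatin, usually flanked by H3K27ac, that raise transcription of genes whose promoters they meet in the folded genome. Developmental regulators often have several enhancers, each active in other cells or stages or acting together. The ABC model multiplies the activity of an element, derived here from ATAC-seq and H3K27ac signal, by its contact with the promoter and divides the product by the total of such products over all elements around the gene. A score is therefore the share of one element in the regulatory input of a gene, and the scores of all elements of a gene add up to at most 1.

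The central 200 bases of a top-scoring element are shown for 6 genes, namely Pcdh10, A930004D18Rik and Sfi1, which were among the genes with the most connections of those kept in both conditions, F3 as the first by name of those kept with 4, and the IFN-γ response genes Cxcl10 and Samd9l, so that the elements the values below refer to can be seen. Sequences are from the plus strand of mm10, with matches to AP-1 (TGANTCA), SOX (ACAAAG or ACAATG), STAT (TTCNNNGAA) and IRF (GAAA, any 2 bases, GAAA) letters on either strand in capitals, and where the centre of the best element overlapped an annotated untranslated exon the next was taken. The Pcdh10 element lies at chr3:45375960-45376159 in an intron of 2610316D01Rik, the A930004D18Rik element at chr2:18040495-18040694, mostly outside genes with its end over a non-coding exon of Skida1, and the Sfi1 element at chr11:3199248-3199447 in an intron of Drg1. The F3 element lies at chr3:121706796-121706995 in an intron of Gm43608. The Cxcl10 element lies at chr5:92353627-92353826 in an intron of Art3, and the Samd9l element at chr6:3341064-3341263 in an intron of Gm20559.
Pcdh10: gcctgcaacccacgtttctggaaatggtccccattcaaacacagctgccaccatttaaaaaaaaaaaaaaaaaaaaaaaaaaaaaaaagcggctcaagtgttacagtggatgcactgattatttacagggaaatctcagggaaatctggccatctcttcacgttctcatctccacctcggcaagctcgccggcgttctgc
A930004D18Rik: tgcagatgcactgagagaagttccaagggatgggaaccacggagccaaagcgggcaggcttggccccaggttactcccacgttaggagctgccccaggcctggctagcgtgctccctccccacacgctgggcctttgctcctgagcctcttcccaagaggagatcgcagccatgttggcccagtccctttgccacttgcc
Sfi1: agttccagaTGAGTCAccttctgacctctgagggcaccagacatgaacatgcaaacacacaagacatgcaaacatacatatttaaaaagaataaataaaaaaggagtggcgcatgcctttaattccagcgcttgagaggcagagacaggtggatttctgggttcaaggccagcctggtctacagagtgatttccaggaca
F3: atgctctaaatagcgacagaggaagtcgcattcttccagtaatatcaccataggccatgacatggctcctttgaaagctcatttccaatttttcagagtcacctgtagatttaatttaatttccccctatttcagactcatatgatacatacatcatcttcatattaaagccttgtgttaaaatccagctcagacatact
Cxcl10: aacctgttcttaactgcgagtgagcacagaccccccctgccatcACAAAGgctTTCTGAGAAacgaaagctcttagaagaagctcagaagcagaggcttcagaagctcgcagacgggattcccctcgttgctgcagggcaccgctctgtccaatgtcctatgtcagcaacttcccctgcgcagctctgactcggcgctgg
Samd9l: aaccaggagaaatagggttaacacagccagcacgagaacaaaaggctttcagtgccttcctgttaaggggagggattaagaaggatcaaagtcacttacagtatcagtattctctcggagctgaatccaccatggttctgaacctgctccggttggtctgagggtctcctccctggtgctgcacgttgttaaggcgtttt
Among these 6 windows, that of Cxcl10 held a STAT and a SOX match and that of Sfi1 an AP-1 match, and no capitals mark the other 4.

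Of the 56 genes with 4 or more connections in either condition, 11 had them in both, 21 in Ctr-OPCs alone and 24 in IFN-γ-OPCs alone. The number kept in both rested on the limits, since it was 46 at a cut-off of 0.04 and 2 at 0.06, 73 with at least 3 connections and 4 with at least 5, and 50 with the power-law score, under which Olig1 was not kept. Among the 11 were Pcdh10 with 7 connections in Ctr-OPCs and 6 after IFN-γ, Sfi1 and A930004D18Rik with 6 and 5 each, Gm43517 with 4 and 5, and F3, Gm11146, Kdm6b, Nr2f1 and Olig1 with 4 in both. These genes were 34.4% of the 32 in Ctr-OPCs (Wilson 95% interval 20.4 to 51.7, which covers counting error only) and 31.4% of the 35 in IFN-γ-OPCs (18.6 to 48.0). Many genes that dropped out were 1 connection short: of the 32 genes in Ctr-OPCs, 11 had 3 connections in IFN-γ-OPCs, 4 had 2, 3 had 1 and 3 had no listed pair at all. Of the 35 genes in IFN-γ-OPCs, 10 had 3 connections in Ctr-OPCs, 7 had 2, 4 had 1 and 3 had none, of which 1 gene had no listed pair.

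**Figure D1:**
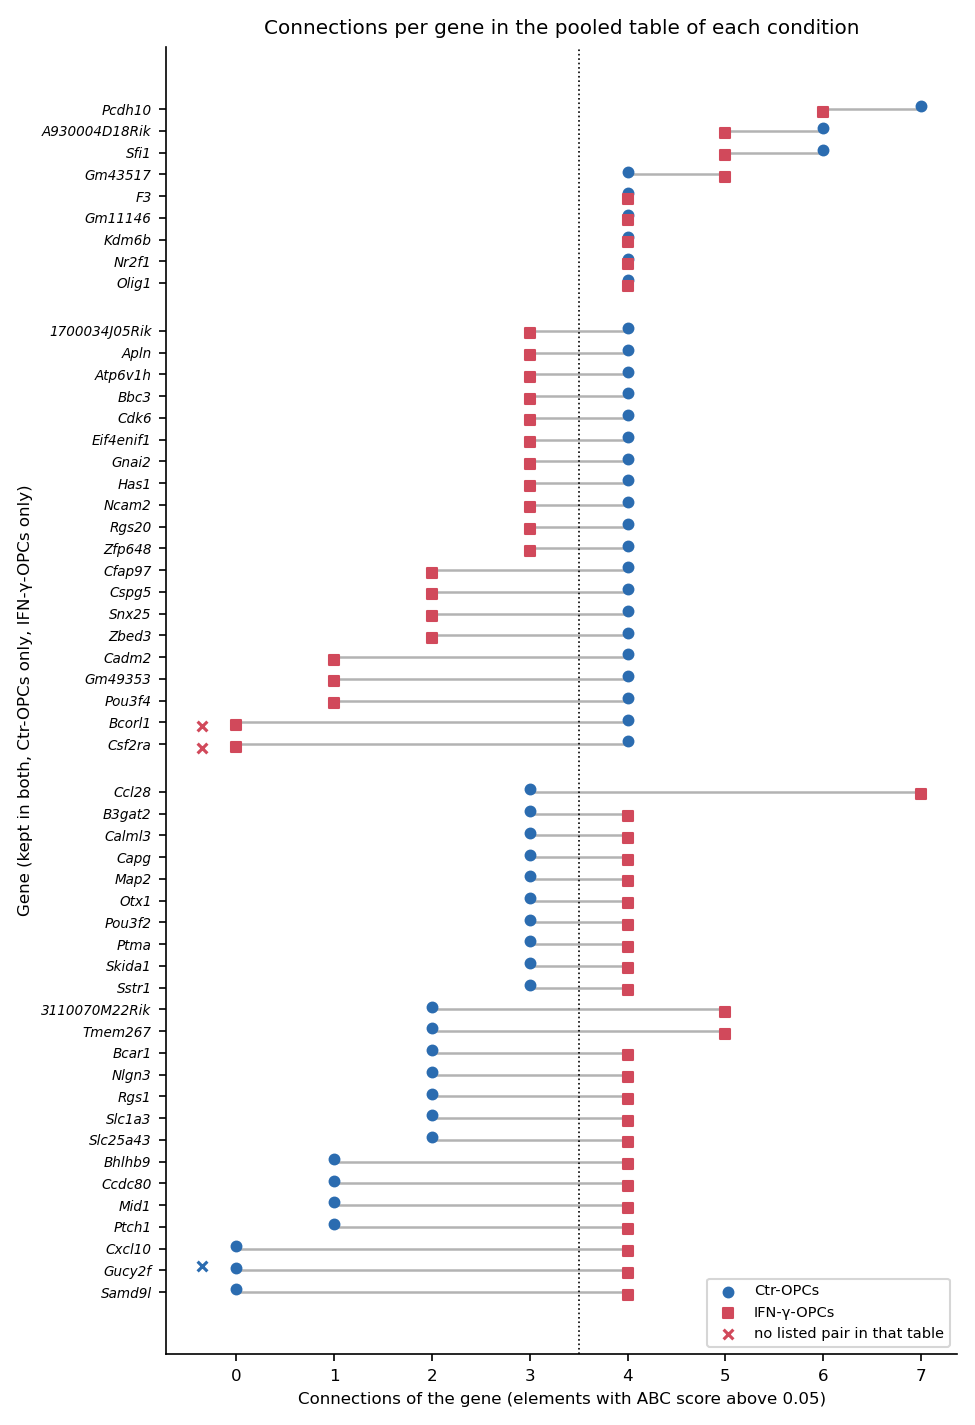
Connections (elements with an ABC score above 0.05) of 53 of the 56 genes, with circles for the pooled Ctr-OPC table, squares for the pooled IFN-γ-OPC table and a cross where the table lists no pair of the gene; the dotted line marks the minimum of 4. The 9 genes at the top lie right of the line in both tables, from 4 to 7 connections.

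By their symbols, 3 of the 11 genes kept in both conditions were transcription factors or DNA-binding regulators, and 6 fell into no class. Of all listed genes, 5.91% in Ctr-OPCs and 5.48% after IFN-γ had a symbol of the former kind, and 68.6% and 68.9% had no class. Olig1 encodes a basic helix-loop-helix factor of the oligodendrocyte lineage and lies at chr16:91269772-91271933. Its 4 elements in Ctr-OPCs were centred 36.1 kb upstream of the start site, 3.60 kb upstream, and 34.6 and 35.8 kb downstream, with scores of 0.0667, 0.0569, 0.0508 and 0.0891. All 4 were connections in IFN-γ-OPCs too, where the matched elements scored 0.0714, 0.0585, 0.0614 and 0.0587. The outermost downstream element held the highest activity of the gene, 11.3 in Ctr-OPCs and 6.27 after IFN-γ, but it was 1140 bp long in the former table and 500 bp in the latter. The other 3 Olig1 elements were 500 bp long in both tables, with activities of 5.47 and 5.01, 2.81 and 2.84, and 5.55 and 5.35.

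Nr2f1 encodes an orphan nuclear receptor that patterns the forebrain, and its 4 connections spanned 9.04 kb in Ctr-OPCs and 9.08 kb after IFN-γ. They scored 0.0946, 0.0591, 0.0901 and 0.0567 in Ctr-OPCs from the element farthest upstream to the one downstream, and 0.0774, 0.0547, 0.0821 and 0.0678 in IFN-γ-OPCs. Every Nr2f1 element was 500 bp long in both tables, and all 4 were found again. The 3 upstream elements shared one contact value per table, 0.0193 in Ctr-OPCs and 0.0168 after IFN-γ, since contacts were measured in bins of 5 kb. Their order of scores is thus the order of their activities.

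Pcdh10 encodes a protocadherin, a cell adhesion molecule of the nervous system, and had the most connections of the genes kept. It lies at chr3:45378398-45435623. In Ctr-OPCs its 7 elements lay within 9.79 kb and scored between 0.0724 and 0.139. In IFN-γ-OPCs its 6 elements lay within 9.53 kb, of which 1 scored 0.269 and the others 0.0569 to 0.134. The numbers hide a difference in how the open chromatin was cut into elements: 3 adjoining Ctr-OPC elements of 736, 500 and 500 bp, with activities of 2.27, 1.58 and 1.42, overlapped 1 IFN-γ-OPC element of 1592 bp with an activity of 4.29. All 7 Ctr-OPC elements overlapped a connection in IFN-γ-OPCs, and 4 of 6 the other way. The summed score of the connections was 0.694 in Ctr-OPCs and 0.682 after IFN-γ, the highest of all genes here in both.

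Kdm6b encodes a demethylase that removes the repressive H3K27 methyl mark, and its 4 connections in each table spanned 10.7 kb. An IFN-γ-OPC element of 1369 bp upstream of Kdm6b, with an activity of 7.57, overlapped 2 Ctr-OPC elements of 744 and 500 bp with 4.59 and 3.89. Inside the gene, 1 Ctr-OPC element of 1395 bp with an activity of 6.10 was listed as 2 elements with 3.53 and 2.78 in IFN-γ-OPCs. F3 encodes tissue factor, the cell surface starter of blood clotting, and all 4 of its elements lay upstream, from 1.82 to 22.9 kb. They scored 0.0802, 0.0929, 0.0571 and 0.0562 in Ctr-OPCs and 0.0636, 0.0522, 0.0586 and 0.0740 after IFN-γ from far to near, so the farther pair scored lower and the nearer pair higher after IFN-γ. The contact of the nearer pair was 0.0371 in control and 0.0523 after IFN-γ, while activity did not exceed its Ctr-OPC value at any of the 4. The middle pair was longer in Ctr-OPCs, with 725 and 1250 bp against 500 bp each after IFN-γ, and the outer pair was 500 bp long in both.

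Sfi1 encodes a centrosomal protein that binds centrins, and it had the most active element of all members. Its element 6.22 kb downstream of the start site lay over coding exons and another annotated transcript start of Sfi1. That element had an activity of 14.7 in Ctr-OPCs and 14.8 after IFN-γ, and a score of 0.181 and 0.172. The adjacent gene Eif4enif1, whose product carries a translation initiation factor into the nucleus, was connected to 4 of the same elements in Ctr-OPCs, and to 3 elements in IFN-γ-OPCs. The Sfi1 elements were 23.0% to 84.6% repeat-masked. Outside the masked bases none had another copy on the mm10 reference chromosomes, where a copy is an alignment of at least 100 bases at 90% identity. Copies absent from that reference could not be found by this search, and their part in the activity was not tested. A930004D18Rik and Gm11146, which have no established function, were kept too. Most Gm11146 elements overlapped exons of the non-coding gene Mir99ahg, and 3 of its 4 elements were found again, with scores of 0.140, 0.0581 and 0.0773 in Ctr-OPCs and 0.175, 0.0875 and 0.0972 after IFN-γ.

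**Figure D2:**
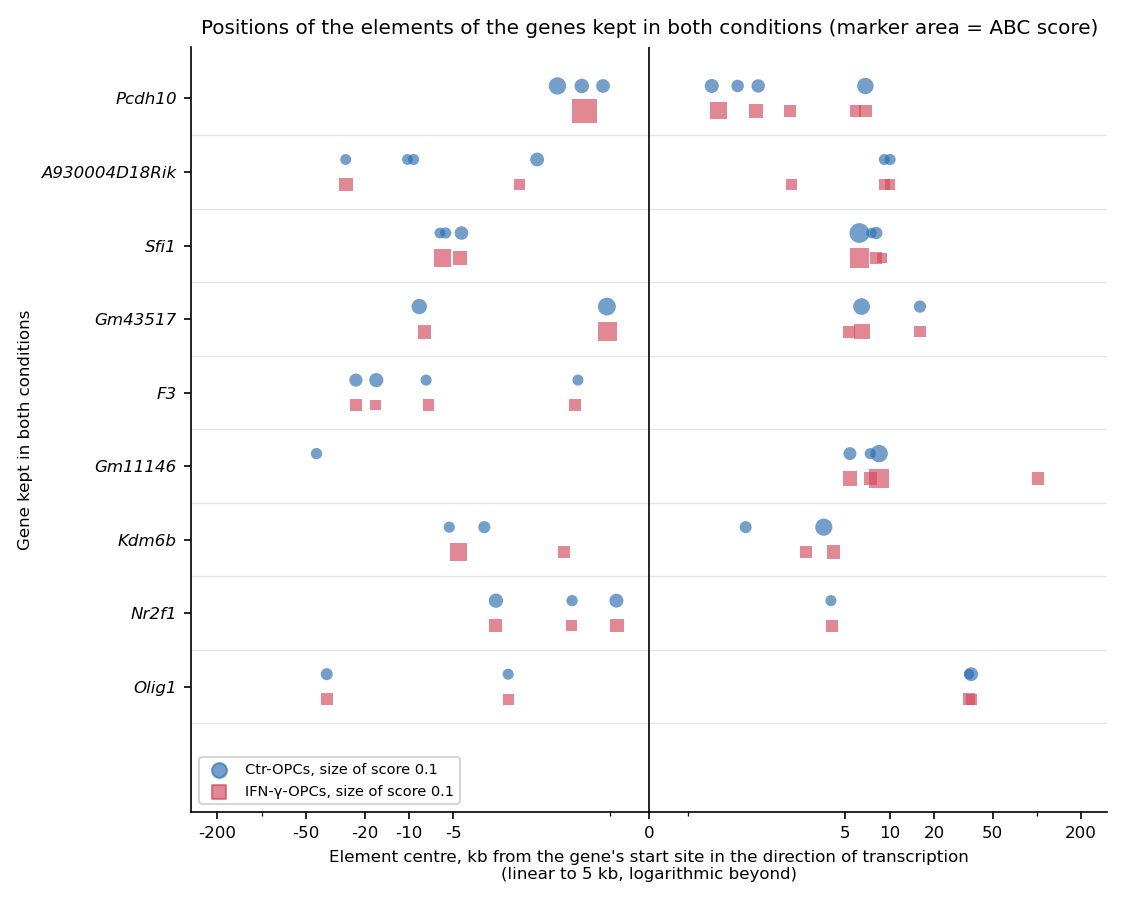
Positions of the elements of 9 of the 11 genes kept in both conditions, in kb from the start site along the direction of transcription on an axis that is linear to 5 kb and logarithmic beyond, with marker area for the ABC score. Nr2f1, F3 and Olig1 show a Ctr-OPC circle over each of their 4 IFN-γ-OPC squares.

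Membership turned on the score of rank 4 in a gene, and many genes sat close to the limit. That score ranged from 0.0501 (Cspg5) to 0.107 (Cadm2) in Ctr-OPCs, with a median of 0.0561, and from 0.0504 (Cxcl10) to 0.0767 (Pcdh10) in IFN-γ-OPCs, with a median of 0.0554. It was under 0.055 in 13 of 32 and 15 of 35 genes. Just outside the limit lay Skida1 at 0.0499 in Ctr-OPCs and Gpm6b, a proteolipid gene, at 0.0499 after IFN-γ. Cxcl9, the chemokine gene next to Cxcl10, stood at 0.0493 in IFN-γ-OPCs. In all, 33 genes in Ctr-OPCs and 28 after IFN-γ had a rank 4 score from 0.045 up to the limit.

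**Figure D3:**
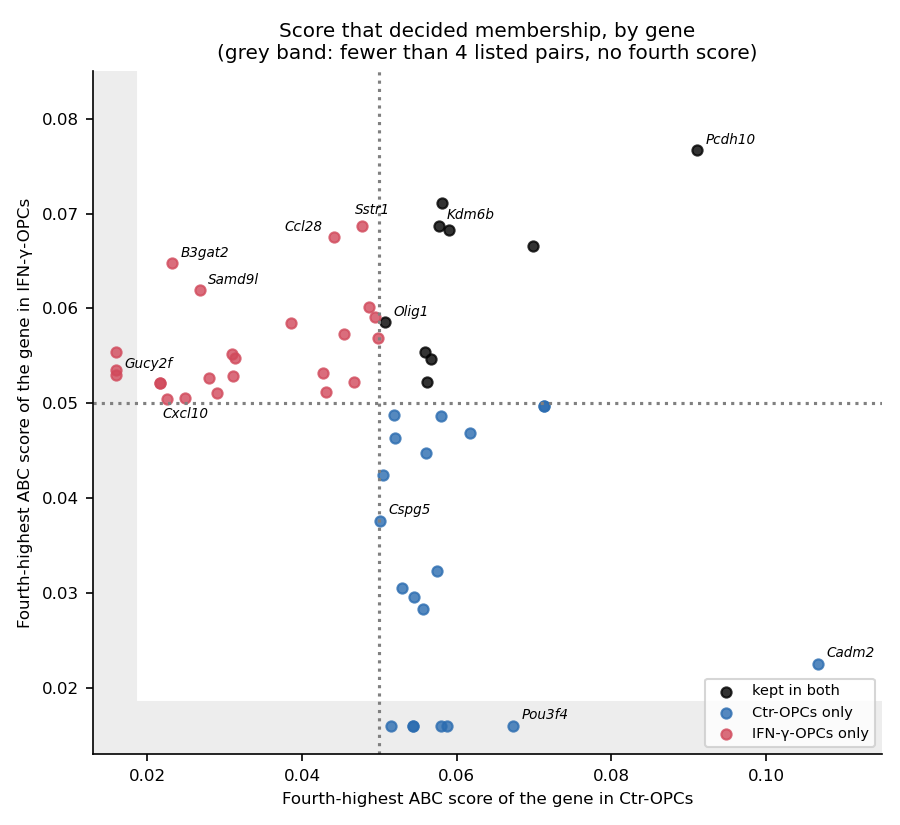
ABC score of rank 4 of 53 of the 56 genes in Ctr-OPCs (x axis) and IFN-γ-OPCs (y axis), with dotted lines at 0.05 and points in the grey bands for genes with fewer than 4 listed pairs in that table. Pcdh10 lies far inside on both axes at 0.0911 and 0.0767, while Cspg5 at 0.0501 and Cxcl10 at 0.0504 lie next to a line.

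The 5 genes that gained the most connections with IFN-γ were Cxcl10, Gucy2f and Samd9l from 0 to 4, Ccl28 from 3 to 7 and Mid1 from 1 to 4, which was tied at 3 added connections with 3110070M22Rik, Tmem267, Bhlhb9, Ccdc80 and Ptch1 and was taken for its larger gain in summed score. Cxcl10, at chr5:92346638-92348889, encodes a chemokine that draws T cells and is induced by interferon in many cells. Its 4 connections in IFN-γ-OPCs scored 0.180, 0.0686, 0.0515 and 0.0504. The first, 4.84 kb upstream of the start site and shown above with its STAT letters, was 500 bp long in both tables, with an activity of 0.296 before and 3.31 after IFN-γ, a log2 difference of 3.48. Its contact was 0.0350 and 0.0408, and its score in Ctr-OPCs was 0.0225. It also touched the end of another Ctr-OPC element, whose activity was 0.503. An element 20.2 kb upstream had an activity of 1.08 over 500 bp and 2.60 over 876 bp. The remaining Cxcl10 elements, 6.01 and 16.2 kb downstream, were not listed in Ctr-OPCs.

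Samd9l, an interferon-inducible gene whose product restrains viruses and cell growth, had scores of 0.106, 0.0691, 0.0842 and 0.0619 in IFN-γ-OPCs. Of its 4 elements, 3 were not listed in Ctr-OPCs, and the one 101 kb upstream was listed there for other genes, with an activity of 0.439 against 1.10 in IFN-γ-OPCs. The total of activity times contact around the gene was 0.0997 in Ctr-OPCs and 0.212 after IFN-γ. Among the 56 member genes, this log2 difference of 1.09 was the largest of those listed in both tables. For Cxcl10 that total was 0.460 and 0.749. Samd9l activities were low, from 0.255 to 1.10, and 2 of its elements had other copies in the genome, with 3 for the one shown above and 1 for the other.

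Ccl28, a chemokine gene of mucosal tissues, had more connections but no higher summed score, which was 0.486 in Ctr-OPCs and 0.475 after IFN-γ. Its 3 connections in Ctr-OPCs included 2 with scores near 0.2, and the matching IFN-γ-OPC elements scored 0.0989 and 0.0675. The total around the gene was 0.410 and 0.568. Its promoter rank in Ctr-OPCs was at the lower end of those listed. Its neighbours 3110070M22Rik and Tmem267 each went from 2 to 5 connections, and all 3 genes shared 5 elements on chromosome 13 in IFN-γ-OPCs. Of these, 1 was 66.4% repeat-masked and had 10 other copies. Gucy2f, a retinal guanylate cyclase gene on X, had no listed pair in Ctr-OPCs and a promoter rank of 0.483 after IFN-γ on a scale from 0 to 1, where listing starts at 0.4, so that a gain of connections and a start of listing cannot be told apart, and all of its 4 elements had activities of at most 0.707. Mid1, an X-linked ubiquitin ligase gene, had its elements 196 to 297 kb inside the gene, and 2 of the 4 had other copies.

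Among the largest losses were Bcorl1 and Csf2ra (4 to 0) and Pou3f4 and Cadm2 (4 to 1). Bcorl1, a corepressor gene, and Csf2ra, a receptor gene for a myeloid growth factor, had no listed pair in IFN-γ-OPCs although 3 of 4 and 4 of 4 of their elements were listed there for other genes. The rank of promoter activity, on a scale from 0 to 1, was 0.468 and 0.421 in Ctr-OPCs, and genes under 0.4 were not listed in either table. In Csf2ra, 2 of the elements had other copies in the genome. A listing that ends at 0.4 and a loss of connections cannot be told apart for these genes.

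Pou3f4, an X-linked POU factor gene, kept 1 of 4 connections, at scores of 0.130 and 0.102, and the other 3 elements were not listed in IFN-γ-OPCs. Cadm2, a synaptic adhesion gene, had the highest rank 4 score in Ctr-OPCs, 0.107, and kept 1 connection, at 0.142 and 0.179. An element 9.75 kb downstream of its start site had an activity of 2.58 and 2.34, its contact was 0.0157 before and 0.00694 after IFN-γ, and its score was 0.107 and 0.0470. Cspg5, a proteoglycan gene expressed in OPCs, kept its elements at 1.65 and 6.15 kb and had the outer pair just under the limit or lower, at 0.0496 and 0.0376. Among marker genes of other brain cells, Slc1a3, the glutamate transporter gene of astrocytes, went from 2 to 4 connections, and Map2, a microtubule gene of neurons, from 3 to 4. Their added connections were listed in Ctr-OPCs below 0.05, at 0.0312 to 0.0480 for Slc1a3 and 0.0209 and 0.0310 for Map2. The whole astrocyte list had 9 connections in Ctr-OPCs and 14 after IFN-γ, and the whole neuron list had 13 in each.

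The remaining genes that were members in Ctr-OPCs alone and had 3 connections in IFN-γ-OPCs were 1700034J05Rik, Apln, Atp6v1h, Bbc3, Cdk6, Eif4enif1, Gnai2, Has1, Ncam2, Rgs20 and Zfp648. For Atp6v1h and Rgs20, whose start sites lie 0.267 kb apart, the rank 4 score after IFN-γ was 0.0497, and for Bbc3, an apoptosis gene, it was 0.0487. Cfap97, Snx25 and Zbed3 had 2 connections after IFN-γ and Gm49353 had 1. In the other direction, B3gat2, Calml3, Capg, Otx1, Pou3f2, Ptma, Skida1 and Sstr1 had 3 connections in Ctr-OPCs, Bcar1, Nlgn3, Rgs1 and Slc25a43 had 2, and Bhlhb9, Ccdc80 and Ptch1 had 1. Pou3f2, a POU factor gene of neural progenitors, had a rank 4 score of 0.0486 in Ctr-OPCs and 0.0602 after IFN-γ. Ptch1, the receptor gene of the Hedgehog pathway, had its 4 elements after IFN-γ within 3.45 kb and a rank 4 score of 0.0309 in Ctr-OPCs.

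The median gap between neighbouring elements was 4.93 kb over 105 gaps in Ctr-OPCs (95% interval 2.11 to 5.87) and 2.80 kb over 116 gaps in IFN-γ-OPCs (1.81 to 5.60), and 31.4% and 30.2% of gaps were under 1 kb. Under other limits the gap in Ctr-OPCs ranged from 1.21 kb with at least 5 connections to 6.5 kb with 1 element per contact bin, and that in IFN-γ-OPCs from 1.55 kb at a cut-off of 0.06 to 9.1 kb with 1 element per bin, and it was 6.22 kb at a cut-off of 0.04. Genes with 2 or 3 connections had median gaps of 6.65 and 7.21 kb and median spans of 9.49 and 10.8 kb, but the rule set the number of elements, which bears on both. The elements of a gene spanned a median of 23.6 kb in Ctr-OPCs, from 3.46 kb at Zbed3 to 113 kb at Atp6v1h and Rgs20, and 25.03 kb in IFN-γ-OPCs, from 3.45 kb at Ptch1 to 402 kb at Rgs1. The median span was 36.4 and 42.7 kb at a cut-off of 0.04, 14.7 kb in IFN-γ-OPCs at 0.06 and 16.2 kb there with the power-law score. Close elements fell into the same contact bin of 5 kb: 24 of 32 genes in Ctr-OPCs and 28 of 35 after IFN-γ had 2 or more elements in 1 bin. In 4 or more bins were the elements of 11 and 10 genes. With 1 element per bin, 4 genes kept 4 or more connections in both conditions, A930004D18Rik, F3, Gm43517 and Olig1. When elements within 1000 bp were merged, 3 did, A930004D18Rik, F3 and Gm43517.

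Member elements lay a median of 5.62 kb from the start site in Ctr-OPCs (4.47 to 7.76) and 7.32 kb in IFN-γ-OPCs (5.85 to 8.84), against 5.04 kb (4.86 to 5.25) and 5.48 kb (5.28 to 5.72) for the other protein-coding connections. With elements merged within 1000 bp these medians were 8.49 and 9.54 kb, and with 1 element per contact bin 8.49 and 12.9 kb. The farthest member element lay 159 kb from its start site in Ctr-OPCs and 308 kb after IFN-γ. Elements were on both sides of the start site at 24 of 32 and 26 of 35 genes, upstream alone at 3 and 2, and downstream alone at 5 and 7. By annotation, 53 of the 122 elements of these genes in Ctr-OPCs, those above 0.2 included, were intronic, 25 overlapped coding exons and 21 were intergenic. In IFN-γ-OPCs these were 48, 25 and 38 of 137. An annotated transcript start lay within 17 of the 122 and 14 of the 137 elements. Some were starts of the target gene itself, as at Sfi1, Zbed3 and Ptch1. Of 137 connections in Ctr-OPCs, 67 overlapped the body of the target gene, and 72 of 151 in IFN-γ-OPCs.

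**Figure D4:**
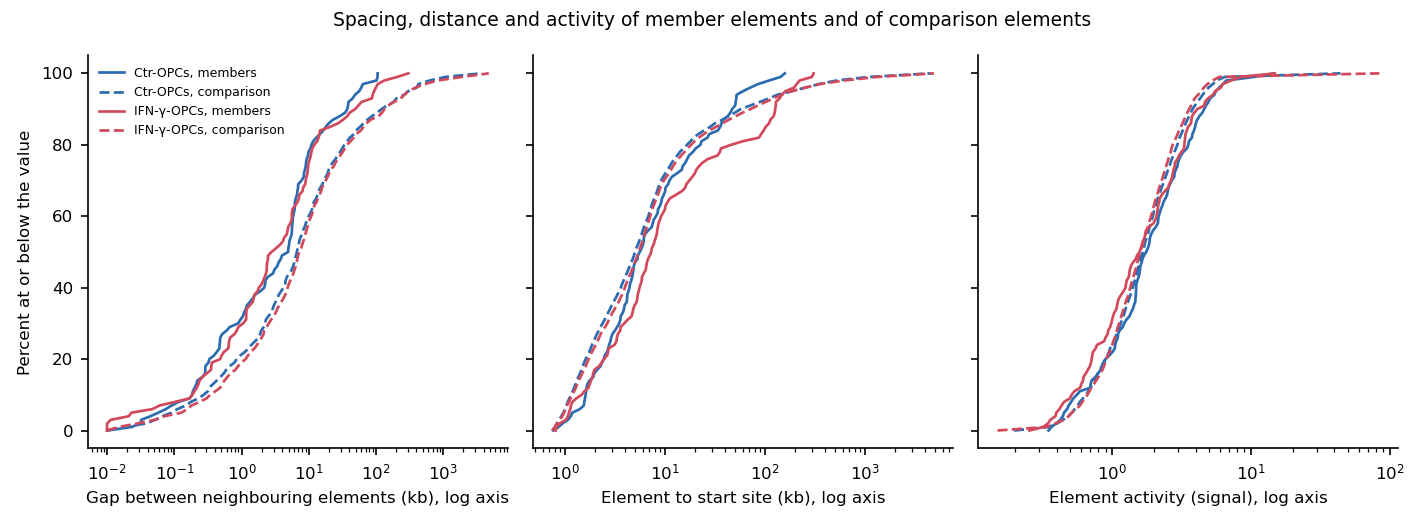
Percent of gaps between neighbouring elements, of distances to the start site and of activities at or below each value, on log axes, for members (solid) and for comparison elements (dashed; genes with 2 or 3 connections for gaps, all other protein-coding connections otherwise); the shortest gaps are drawn at the left end of the axis, 0.01 kb. The solid curves for gaps lie left of the dashed ones, with medians of 4.93 and 2.80 kb, and the activity curves lie close together.

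Median activity of member elements was 1.77 over 118 distinct elements in Ctr-OPCs (95% interval 1.50 to 2.16) and 1.58 over 134 in IFN-γ-OPCs (1.26 to 2.03), against 1.67 and 1.61 for elements of other protein-coding connections and 0.866 and 0.803 for all listed elements. The IFN-γ-OPC median was 2.74 with at least 5 connections, 2.21 at a cut-off of 0.06 and 2.16 with 1 element per contact bin. Within a gene, the most active element had a median of 3.19 times the activity of the least active in Ctr-OPCs and 2.74 times after IFN-γ. The lowest activity after IFN-γ was 0.255, at Samd9l. Contact before the pseudocount of the model had a median of 0.0303 in Ctr-OPC members (95% interval 0.0269 to 0.0327) and 0.0311 after IFN-γ (0.0223 to 0.0405). The other connections had 0.0361 and 0.0374. Contact enters the score that chose the members, so these medians were not tested against each other.

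Between conditions, 87 of 133 member pairs of Ctr-OPCs (65.4%, 57.0 to 73.0) overlapped a connection of the same gene in IFN-γ-OPCs, where 56.7% of all protein-coding connections did. Of 148 member pairs of IFN-γ-OPCs, 75 (50.7%, 42.7 to 58.6) overlapped one in Ctr-OPCs, where 53% of all did. The shares differed by whether the gene kept its connections, 86.3% and 81.6% for pairs of the 11 genes and 52.4% and 35.4% for pairs of the others, a split that the rule itself helps to set. Of the Ctr-OPC pairs not found again, 20 were listed below 0.05, 12 overlapped an element listed for other genes alone and 14 overlapped no listed element. Among IFN-γ-OPC pairs these numbers were 36, 10 and 27. Over all 5018 protein-coding connections of Ctr-OPCs, 4075 overlapped a listed pair of the same gene in IFN-γ-OPCs, and 2847 overlapped a connection. For all 5347 connections of IFN-γ-OPCs these numbers were 4221 and 2833.

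Pairs listed in both tables allowed a ratio of IFN-γ-OPCs over Ctr-OPCs. Connections chosen in one table score lower in the other: over all matched protein-coding connections the median log2 score was -0.19 for those chosen in Ctr-OPCs and 0.23 for those chosen in IFN-γ-OPCs. Each median below stands beside that of all protein-coding connections chosen in the same table. For the 107 matched pairs of Ctr-OPCs the median log2 activity was -0.01 (SD over pairs 0.48) against -0.17 for all 4075, and for the 111 of IFN-γ-OPCs 0.07 (SD 0.61) against -0.01 for all 4221. The sign of both member medians rested on the limits. Under the alternatives they ranged from -0.143 to 0.141 in Ctr-OPCs and from -0.029 to 0.174 for pairs chosen after IFN-γ. Median log2 contact was 0.09 against -0.03 and 0.29 against 0.16, and its size rested on the limits: under the alternatives it ranged from 0.0064 with at least 3 connections to 0.452 at a cut-off of 0.06 in Ctr-OPCs, and from 0.041 with the power-law score to 0.304 without the pseudocount for pairs chosen after IFN-γ. Contact was at least 2-fold higher at 5 and lower at 3 of the 107 pairs, where the shares over all were 1.06% and 3.68%, and higher at 14 and lower at 1 of the 111, where they were 5.61% and 0.663%. Gm11146 was among these, with 0.0123 in control and 0.0251 after IFN-γ at its best-scoring element. Activity was at least 2-fold higher in IFN-γ-OPCs at 8 of 107 pairs and 2-fold lower at none, where the shares over all were 1.35% and 5.64%. For pairs of IFN-γ-OPCs it was higher at 4 of 111 and lower at 3, where the shares over all were 4.31% and 1.37%.

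Nearly all of these large ratios joined elements of unequal length. Over all matched connections chosen in Ctr-OPCs, 55 were 2-fold higher and 230 lower, of which 7 and 6 had 500 bp elements on both sides. Of all those chosen in IFN-γ-OPCs, 182 were higher and 58 lower, of which 31 and 2 had 500 bp on both sides. The 8 member pairs chosen in Ctr-OPCs included ones of Pcdh10, Sfi1, Eif4enif1 and Zbed3. Each was a 500 bp element that overlapped an IFN-γ-OPC element of 920 to 1592 bp. Sfi1 and Eif4enif1 contributed the same elements, so these pairs repeat each other. Of the 7 member pairs chosen in IFN-γ-OPCs, 6 also differed in length, among them those at B3gat2, Capg, Kdm6b, Sfi1 and the outer Cxcl10 element. The exception was the Cxcl10 element 4.84 kb upstream. Among pairs with 500 bp elements on both sides, the log2 activity of 62 Ctr-OPC pairs ranged from -0.55 to 0.54, with a median of -0.02 and an SD of 0.23 against a median of -0.13 over all 2573 such connections, and no pair differed 2-fold, where 0.272% of all such connections were higher and 0.233% lower. In IFN-γ-OPCs the median of 63 pairs was 0.06 against -0.05 over all 2764, and 1 pair, that of Cxcl10, was higher by 2-fold or more, where the share over all was 1.12%, and none lower, where it was 0.0724%.

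**Figure D5:**
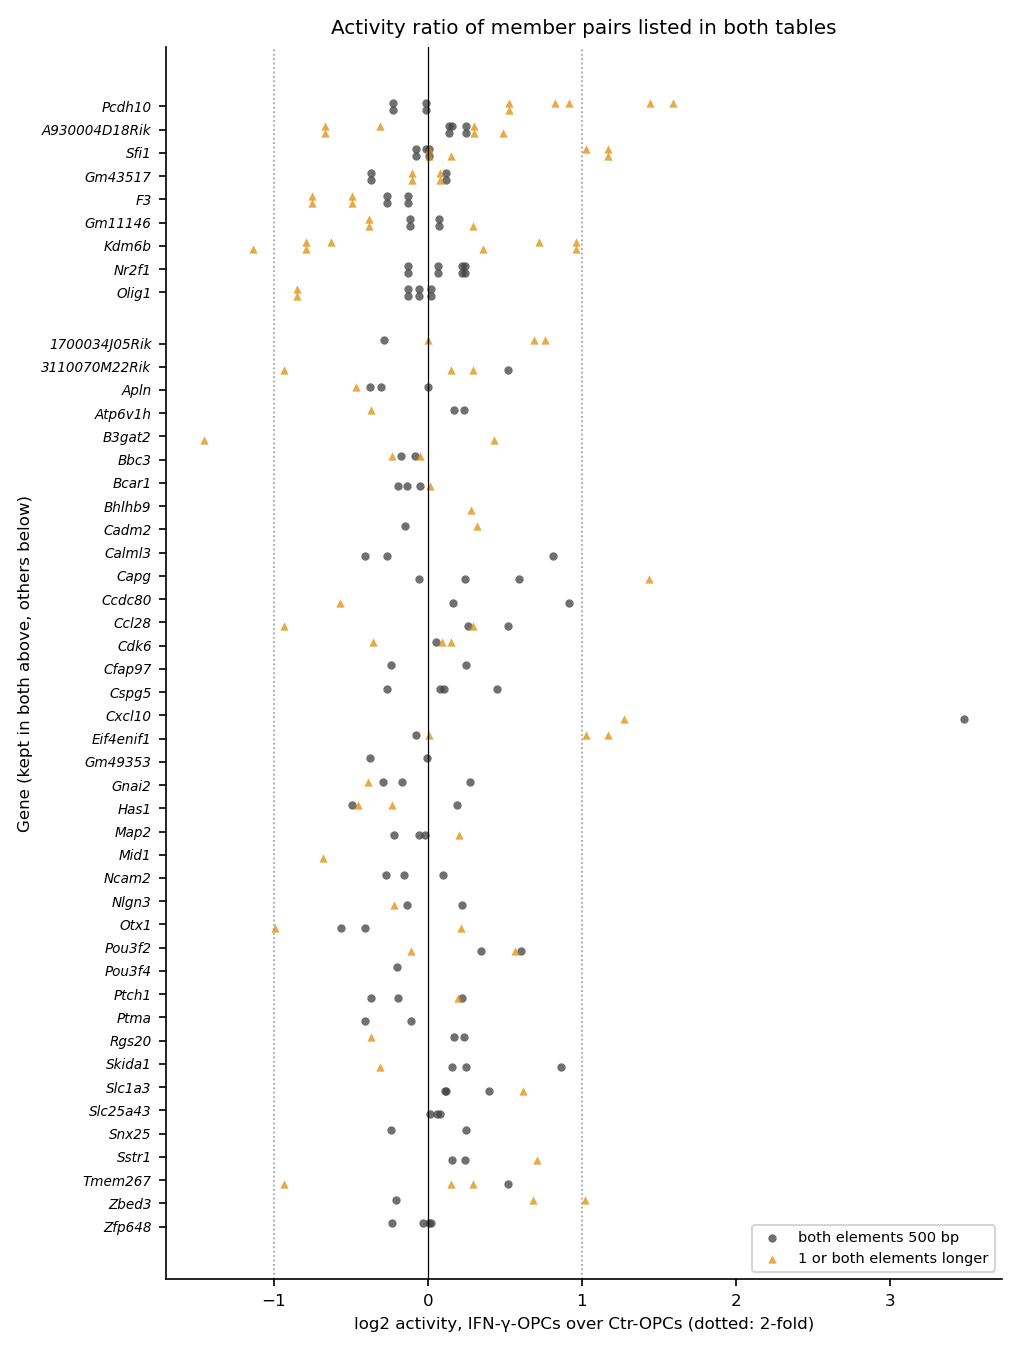
log2 activity in IFN-γ-OPCs over Ctr-OPCs for member pairs listed in both tables, by gene, with circles where both elements are 500 bp long and triangles where 1 or both are longer; dotted lines mark 2-fold, and pairs chosen in either table are shown. A circle lies beyond the dotted lines at Cxcl10 alone, at 3.48, whereas the triangles of Pcdh10 reach 1.59.

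Several genes were members through shared elements. In Ctr-OPCs, 15 elements were shared by 2 member genes, and 8 of 32 genes took part, among them the proton pump gene Atp6v1h with Rgs20, a regulator of G proteins, Cfap97 with the sorting nexin gene Snx25, and Eif4enif1 with Sfi1, with 4 elements each. In IFN-γ-OPCs 9 elements were shared and 7 of 35 genes took part. Counting targets of any kind, 67.8% of member elements in Ctr-OPCs and 58.2% after IFN-γ had 2 or more target genes, against 42.0% and 41.6% of the elements of other protein-coding connections. The most for a single member element was 10, for an element of Gm11146 in Ctr-OPCs. The median member gene had 1.5 other protein-coding start sites within 100 kb in Ctr-OPCs and 1 after IFN-γ, against 3 for other genes with a connection in both conditions.

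On the X chromosome lay 5 of 32 genes in Ctr-OPCs (15.6%, 6.86 to 31.8) and 6 of 35 in IFN-γ-OPCs (17.1%, 8.10 to 32.7), where 3.23% and 2.98% of the listed protein-coding genes were X-linked, and 5.79% and 5.63% of the other genes with a connection. Among the X-linked genes were Apln, Bcorl1 and Pou3f4 in Ctr-OPCs and Bhlhb9, Gucy2f, Mid1, Nlgn3 and Slc25a43 after IFN-γ. Their totals of activity times contact were low, from 0.170 at Apln to 0.366 at Bcorl1 in Ctr-OPCs and from 0.0844 at Mid1 to 0.506 at Nlgn3 after IFN-γ, against a median of 0.718 and 0.737 for all member genes. The part of a low total in the number of connections was not tested.

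By symbol stem, 5 of 32 genes in Ctr-OPCs (15.6%) were transcription factors or DNA-binding regulators, among them Nr2f1, Olig1, Pou3f4 and Zfp648, where 5.91% of listed genes and 6.96% of genes with a connection carried such a stem. In IFN-γ-OPCs 6 of 35 did (17.1%, against 5.48% and 6.10%), among them Nr2f1, Olig1, Otx1, Pou3f2 and Bhlhb9, of which Bhlhb9 shares the letters only and belongs to a family of receptor-sorting proteins. Adhesion and matrix genes were 4 of 32 in Ctr-OPCs (Cadm2, Cspg5, Ncam2 and Pcdh10), where 3.22% of listed genes had such a stem, and 2 of 35 in IFN-γ-OPCs (Nlgn3 and Pcdh10), where 3.19% had. Receptors, ligands and growth factors were 1 of 32 (Csf2ra) and 4 of 35 (Ccl28, Cxcl10, Ptch1 and Sstr1), where 4.31% of listed genes had such a stem in each table. Kinases, GTPases and their regulators were 3 of 32 (Cdk6, Gnai2 and Rgs20) and 1 of 35 (Rgs1), where 5.10% and 5.05% had. No class was given to 25 of the 56 genes (44.6%), where 68.6% and 68.9% of listed genes had none.

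Of 71 IFN-γ response genes, 48 were listed in Ctr-OPCs and 61 after IFN-γ, and 0 and 2 of them (Cxcl10 and Samd9l) had 4 or more connections, where 0.256% and 0.273% of all listed genes did. Connections were found at 15 of these 48 genes and 34 of the 61, 17 and 50 connections in total, where 31.7% and 33.1% of all listed protein-coding genes had a connection. Of 61 genes of the OPC and oligodendrocyte lineage, 57 and 58 were listed and 4 and 2 had 4 or more, with Olig1 and Nr2f1 in both and Cspg5 among those in Ctr-OPCs alone. This list had 69 connections in Ctr-OPCs and 60 after IFN-γ. No listed gene of the microglia or the endothelial and mural lists had 4 or more in either table.

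Sequence letters were counted within the central 500 bases of member elements, of elements of other connections and of all listed elements. AP-1 letters (TGANTCA) were in 9.32% of 118 member elements in Ctr-OPCs and 16.4% of 134 after IFN-γ, against 12.2% and 14.5% of elements of other protein-coding connections and 14.5% and 16.2% of all listed elements. IRF letters (GAAA, any 2 bases, GAAA) were in 6.78% and 11.9%, against 5.90% and 8.37% of other connections and 5.41% and 8.60% of all listed elements. STAT letters (TTCNNNGAA) were in 15.3% and 16.4%, against 13.7% and 15.3%, and 13.9% and 15.2%. SOX letters (ACAAAG or ACAATG) were in 47.5% and 53.0%, against 48.0% and 50.2%, and 52.7% and 55.1%. E-box letters (CANNTG), of the kind that Olig1 and related factors bind, were in 86.4% and 87.3%, against 89.4% and 89.9% of other connections and 93.4% and 93.7% of all listed elements, and NFI letters (TTGGCA) were in 21.2% and 29.9%, against 27.4% and 28.1%, and 29.7% and 29.6%. GC content had a median of 54.6% and 49.4% in members and 52.8% and 52.2% in the other connections. Both strands were searched, the letters can overlap each other, and a match is not a bound site. Another copy in the genome was found for 8 of 122 elements in Ctr-OPCs and 9 of 137 after IFN-γ. All 4 elements of Cdk6 in Ctr-OPCs were among them, with 2 to 10 copies each.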

How the data were processed

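The authors prepared H3K27ac HiChIP from 6 libraries, processed it with HiC-Pro on mm10, per the labels, and ran the ABC model with ATAC-seq and H3K27ac CUT&RUN as the activity input. Versions, and how activity was scaled between conditions, are not given in the sources used here. Each deposited table pools the 3 libraries of a condition and lists pairs with a score of at least 0.02 for genes of promoter rank from 0.4. It holds no pair marked as a promoter and its own gene, but elements over other annotated transcript starts of the target gene remained. Activity was deposited as a signal, the ABC score as a fraction, and contact, the power-law value and the promoter rank as a score of another kind. These tables carry no read numbers, so depth is unknown.

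Target genes were named through GENCODE M21 by unversioned identifiers (25689 of 25779 and 26510 of 26591 matched). A connection was a pair of a protein-coding gene with a score above 0.05, member genes had at least 4, and member pairs scored at most 0.2. Pairs were matched between tables by gene and an overlap of at least 1 bp, and the larger overlap was kept. Contact of single pairs and contact ratios use the deposited value with the pseudocount of the model. Intervals are Wilson intervals for shares and order-statistic intervals for medians at 95%, and they cover counting error only. With 1 pooled table per condition no test was run, and a 2-fold difference is used as a description. Sequence came from GRCm38, copies from BLAST+ 2.17.0 seeded outside soft-masked repeats, and Python 3.11.15 with pandas 2.3.3 did the rest. The rule and medians were tested on simulated data. Named genes were those kept in both conditions, the 5 largest gains and losses (ties by the change in summed score), the 5 with the most pairs per table and members of a gene list; 3 of the 56 members are not reported here, by name or in plots of single genes, but count in all totals; other members are named where a value singled them out, which was decided after their values were seen. The members and all lists were chosen with earlier results of these data known.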

Additional observations from a re-analysis of the deposited data

How the results depend on the processing

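Among the values of 19 results under the alternatives, 112 stayed within their limits and 73 moved; the cause of a move was not tested beyond what an alternative itself changes. Where 2 values follow each other, the first belongs to Ctr-OPCs, the second to IFN-γ-OPCs. With a cut-off of 0.04, 46 genes were kept in both conditions, the 11 described among them, with 121 and 123 genes and 506 and 537 pairs; the median distance was 7.83 and 8.96 kb, the IFN-γ gap 6.22 kb and span 42.7 kb, and the log2 contact ratio in Ctr-OPCs 0.0067. With a cut-off of 0.06, 2 genes were kept (Gm43517 and Pcdh10), with 7 and 11 genes and 31 and 43 pairs; median activity was 1.49 and 2.21, the log2 contact ratio in Ctr-OPCs 0.452, and the IFN-γ gap 1.55 kb, span 14.7 kb and distance 5.37 kb. With at least 3 connections, 73 genes were kept, with 163 and 182 genes and 509 and 579 pairs, and the contact ratio in Ctr-OPCs was 0.0064. With at least 5, 4 genes were kept (A930004D18Rik, Pcdh10 and Sfi1 among them), with 5 and 8 genes and 28 and 42 pairs; gaps were 1.21 and 1.76 kb, the log2 activity ratio in Ctr-OPCs 0.141, while after IFN-γ 59.5% of pairs were found again, activity was 2.74 and the contact ratio 0.069. With elements within 1000 bp merged, 3 genes were kept, with 13 and 16 genes and 51 and 64 pairs, gaps of 6.36 and 7.25 kb, distances of 8.49 and 9.54 kb and an activity ratio in Ctr-OPCs of -0.143. With 1 element per 5 kb bin, 4 genes were kept, with 11 and 10 genes and 43 and 40 pairs, gaps of 6.5 and 9.1 kb, distances of 8.49 and 12.9 kb, an activity ratio in Ctr-OPCs of -0.119 and an activity in IFN-γ-OPCs of 2.16. With the power-law score, which replaces measured contact by distance, 50 genes were kept, 8 of the 11 among them (not Gm11146, Gm43517 and Olig1), with 133 and 100 genes and 560 and 405 pairs; activity in Ctr-OPCs was 1.36, while after IFN-γ 70.1% of pairs were found again, the span was 16.2 kb, the distance 5.55 kb and the contact ratio 0.041. A reciprocal overlap of 50% left 52.6% and 42.6% of pairs found again. Activity divided by the table median gave log2 ratios of 0.101 and 0.174. The log2 activity ratio was small in both conditions and was not tested. In Ctr-OPCs it changed sign from -0.0075 with a cut-off of 0.06 (0.039), with at least 5 connections and with the table median. After IFN-γ it changed sign from 0.066 with a cut-off of 0.04 (-0.0017) and the power-law score (-0.029). The restriction to elements of 500 bp was chosen after seeing the data. The number of kept genes thus moved by more than 1.5 times under each change of cut-off, minimum number and merging. No paired analysis was possible because values of single libraries are pooled in both tables, which also left no replicate to leave out.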
